A study of Mus musculus with 9 samples.

Results

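The genes described are 10 regulators of cartilage formation, namely Sox9, Sox5, Sox6, Sox8, Sox4, Trps1, Runx1, Nkx3-2, Arid5b and Wwp2. They were picked by gene symbol with earlier results of these data known, and all 10 were found among the 26202 genes of the deposited table. Their RNA was measured in 9 libraries of ATDC5, a mouse chondrogenic cell line, in 3 libraries each labelled acetate, ethanol and control. The shared culture medium was DMEM/F-12 with 5% serum, and all 3 groups had 50 µg/mL ascorbate, 10 mM beta-glycerophosphate and a supplement of insulin, transferrin and selenium to bring on cartilage differentiation. Neither dose nor duration of acetate or ethanol, nor a vehicle for the controls, is stated for these cells in the sources used here. ATDC5 is a single cell line grown in culture, and nothing in the labels says that the 3 libraries of a group came from separate cultures, so the p-values measure a spread that may be technical. The question behind the comparison is whether acetate, which the body makes from ethanol, acts on differentiating cartilage cells as ethanol does.

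SOX9 is a DNA-binding protein that cartilage cells need in order to form and to stay cartilage cells, and it switches on genes of the cartilage matrix. SOX5 and SOX6 have no activation domain of their own, bind as dimers near SOX9 and strengthen its action on those genes. The 3 are called the SOX trio. SOX8 is a close relative of SOX9, SOX4 belongs to a different SOX group found in progenitor cells, and the other regulators act beside the trio.

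Levels are TMM-scaled CPM, counts relative to library size, obtained from the deposited log2 values, with mean ± SD over n = 3 libraries per group. Fold changes are differences of log2(CPM + 1) with the standard error from limma, and p-values were adjusted by the Benjamini-Hochberg method over all 12868 genes that averaged 1 CPM or more across the 9 libraries. A gene is said to pass when its adjusted p is under 0.05. Recovered library sizes were 28.7 to 41.9 M reads. The 6 chondrocyte markers all averaged above 1 CPM and summed to 4854 to 5487 CPM in acetate, 4400 to 5602 CPM in ethanol and 9528 to 12504 CPM in control. The skeletal muscle, adipocyte and blood markers each summed to 0.243 to 1.14 CPM in every library, with Myod1, Myog and Cd3e at 0, and those of endothelium and of lineages with SOX10 to at most 5.77 CPM. The 4 markers of hypertrophic chondrocytes summed to 4266 to 7335 CPM in acetate, 4089 to 4568 CPM in ethanol and 6923 to 8155 CPM in control, and the 4 osteoblast markers to 440 to 638, 437 to 758 and 386 to 543 CPM in the same groups. The hypertrophic sums are mostly Ibsp, at 5960, 4249 and 7268 CPM on average in acetate, ethanol and control. The other 3, Col10a1, Ihh and Mmp13, fell with both treatments, by 1.72, 0.97 and 0.95 on the log2 scale with acetate and by 1.27, 1.89 and 0.95 with ethanol, while Ibsp did not pass. Mmp13 averaged 0.608 CPM in acetate, 0.587 CPM in ethanol and 2.07 CPM in control. It reached the mean of 1 CPM only through control, so its fall is not independent of that filter. The osteoblast sums are mostly Sp7 and Dmp1, which did not pass, and hide Bglap, which fell with ethanol (-1.65, adjusted p = 0.0030 in limma, with 4.26 ± 0.692 CPM in ethanol and 15.7 ± 3.37 CPM in control). Bglap and Ifitm5 were higher in acetate than in ethanol, by 2.19 and 0.84. With acetate, Ihh and Mmp13 lost their calls without acetate replicate 3 or any control library (0.058 to 0.16), Col10a1 without control replicate 3 (0.052), and Mmp13 also without any ethanol library (0.061 to 0.069) and with the GC trend removed (0.081). In the fit of only the 6 libraries compared, Ihh (0.10) and Mmp13 (0.14) lost them too. With ethanol, Mmp13 lost its call without ethanol replicate 1 or 2 or any control library (0.052 to 0.087), and Ifitm5 lost the direct one without any ethanol library (0.075 to 0.10) or with only the 6 libraries compared (0.085). With the replicate block Ibsp fell with ethanol (adjusted p = 0.038) and Dmp1 rose (adjusted p = 0.0020). The part of maturation stage in the results was not tested. In a bulk sample, fewer cells of a type and less RNA per cell cannot be told apart. Acetate replicate 2 stood apart from the other acetate libraries: 1622 genes differed more than 2-fold, 1588 of them lower, and across 12750 genes its difference went with transcript GC content (Pearson r = 0.81; genes are no independent replicates). Where leaving it out, or removing the GC trend from every library, changed a call of a regulator, those values are given.

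Per kilobase of the longest annotated transcript, Wwp2 and Sox9 had the highest levels of the group. Wwp2 stood at 89.7 ± 7.47, 117 ± 6.93 and 121 ± 19.1 CPM per kilobase in acetate, ethanol and control, and Sox9 at 72.8 ± 4.35, 76.8 ± 7.19 and 109 ± 10.3. In control these neighbours lay within each other's spread, and with the summed length of all annotated exons Wwp2 was at 59.0 CPM per kilobase there, below Sox9. Next in control came Trps1 at 44.5 ± 4.74, Sox4 at 24.3 ± 1.74, Sox6 at 14.3 ± 1.48 and Arid5b at 8.31 ± 0.0569 CPM per kilobase. Sox5 (5.62 ± 0.169), Runx1 (4.51 ± 0.270) and Sox8 (3.89 ± 0.399) followed, and Nkx3-2 was lowest at 0.182 ± 0.0660 CPM per kilobase. The order of Sox5, Runx1 and Sox8 rests on the length used, since per kilobase of summed exons Sox8 was at 3.74 CPM in control, above Sox5 at 2.83 CPM and Runx1. The partners of SOX9 were thus present at lower RNA levels per length than Sox9 in all 3 groups.

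**Figure D1:**
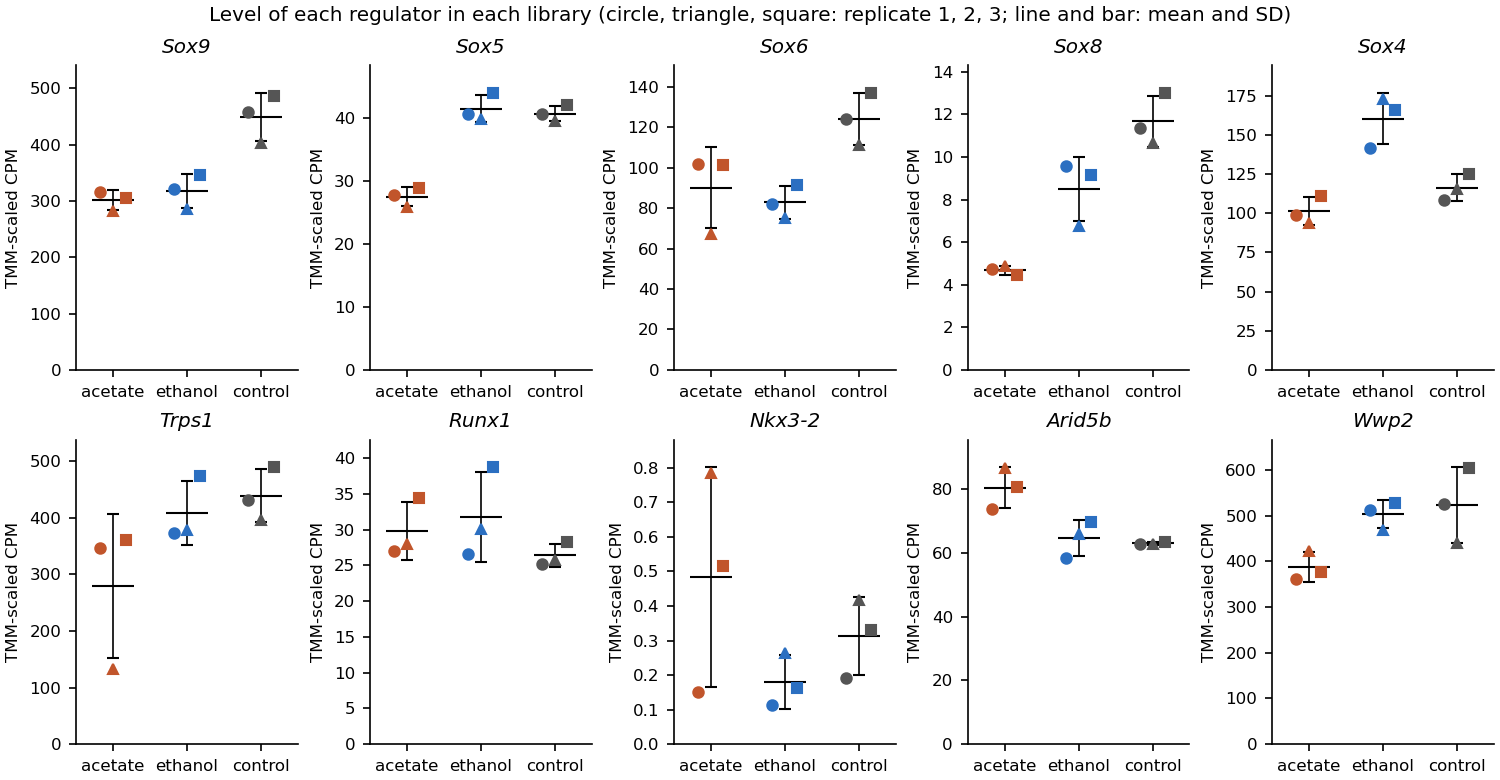
TMM-scaled CPM of the 10 regulators in each of the 9 libraries, by group, with the mean and SD of 3 libraries per group. All 3 acetate values of Sox5 and Sox8 lie below all ethanol and all control values, while the ethanol values of Sox4 lie above all others, and acetate replicate 2 stands alone for Trps1 at 133 CPM.

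Sox9 (chromosome 11, 112782224 to 112787760 on GRCm38, plus strand) was lower in both treated groups. Its level was 316, 281 and 305 CPM in acetate, 321, 286 and 345 CPM in ethanol, and 458, 403 and 486 CPM in control. No treated library reached any control library, and the treated groups overlapped. The log2 fold change was -0.57 ± 0.12 for acetate against control (adjusted p = 0.066 in limma) and -0.50 ± 0.12 for ethanol against control (adjusted p = 0.056), so neither passed. Without acetate replicate 2 both passed, with adjusted p = 0.027 for acetate and adjusted p = 0.0063 for ethanol. A block for replicate number also brought ethanol past the threshold (adjusted p = 0.022). The numbers come from the titles, and that ethanol and control libraries pair by them was inferred from these same data. Under median-of-ratios scaling both treatments passed (adjusted p = 0.045 for acetate and adjusted p = 0.038 for ethanol), and removal of the GC trend gave adjusted p = 0.0069 for acetate and adjusted p = 0.0064 for ethanol. When any library other than acetate replicate 2 was left out, Sox9 passed with neither treatment. Over the alternative fits its adjusted p in limma reached 0.30 for acetate and 0.26 for ethanol, each against control. Acetate and ethanol themselves differed by -0.07 on the log2 scale, with a 95% interval of -0.35 to 0.20.

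The partners Sox5 and Sox6, which code for near relatives of one another, gave different patterns. Sox5 (chromosome 6, 143828425 to 144781977, minus strand) had 27.7, 25.9 and 28.9 CPM in acetate, 40.7, 39.8 and 44.0 CPM in ethanol, and 40.6, 39.6 and 42.0 CPM in control. The acetate libraries were apart from all others, and ethanol and control overlapped. Sox5 fell with acetate (-0.55 ± 0.10, adjusted p = 0.042 in limma), whereas ethanol against control gave 0.03 ± 0.10 with a 95% interval of -0.20 to 0.25. The direct difference between acetate and ethanol passed too (-0.57 ± 0.10, adjusted p = 0.015). The call against control held when acetate replicate 2 was left out (adjusted p = 0.010) and was lost when any other library was. Leaving out acetate replicate 1 or 3 gave 0.060 or 0.092, any ethanol library 0.085 to 0.10, and control replicate 1, 2 or 3 gave 0.23, 0.14 or 0.15. The direct call was lost when ethanol replicate 1, 2 or 3 was left out (0.066, 0.077 and 0.084), and in the fit of only the 6 libraries compared. With the GC trend removed, the log2 fold changes were -0.37 against control (adjusted p = 0.11) and -0.39 against ethanol (adjusted p = 0.065).

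Sox6 (chromosome 7, 115470872 to 116038796, minus strand) had 102, 67.1 and 101 CPM in acetate, 82.3, 75.0 and 91.4 CPM in ethanol, and 124, 111 and 137 CPM in control. Every treated library lay below every control library, and acetate replicate 2 was the lowest of the 9. The log2 fold changes were -0.48 ± 0.18 with acetate (adjusted p = 0.26 in limma) and -0.58 ± 0.18 with ethanol (adjusted p = 0.11), and neither passed. Blocking on replicate number brought ethanol past the threshold (adjusted p = 0.032), and so did leaving out acetate replicate 2 (adjusted p = 0.0032). Without that library the acetate value was -0.28 (adjusted p = 0.21). With the GC trend removed, acetate gave -0.37 (adjusted p = 0.057) and ethanol passed at -0.59 (adjusted p = 0.0044). Acetate minus ethanol was 0.10 with a 95% interval of -0.30 to 0.49.

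Sox8 had the deepest fall of the 9 tested regulators with acetate. The gene (chromosome 17, 25565892 to 25570686, minus strand) stood at 4.73, 4.86 and 4.44 CPM in acetate, 9.59, 6.76 and 9.14 CPM in ethanol, and 11.4, 10.7 and 13.0 CPM in control. The 3 groups did not overlap, and acetate was the lowest. Sox8 fell by 1.16 ± 0.14 on the log2 scale with acetate (adjusted p = 0.012 in limma) and was lower in acetate than in ethanol (-0.73 ± 0.14, adjusted p = 0.024). Ethanol against control did not pass (-0.43 ± 0.14, adjusted p = 0.14), but did without acetate replicate 2 (adjusted p = 0.042). The acetate call was lost without control replicate 1 (adjusted p = 0.082) or control replicate 3 (adjusted p = 0.077). The direct call was lost without acetate replicate 1 (adjusted p = 0.057), ethanol replicate 1 (0.11), ethanol replicate 3 (0.11) or control replicate 1 (0.054), and with no filter on low values (0.053). It was also lost in the fit of only the 6 libraries compared. With 164 to 512 recovered reads per library, this was the regulator with the fewest reads among those tested.

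Sox4, which codes for a SOX protein of progenitor cells, had its highest level in ethanol. The gene (chromosome 13, 28948919 to 28953713, minus strand) has 1 exon and stood at 98.9, 93.8 and 111 CPM in acetate, 142, 173 and 166 CPM in ethanol, and 109, 115 and 125 CPM in control. The ethanol libraries were above all others, while acetate and control overlapped. Sox4 was lower in acetate than in ethanol (-0.66 ± 0.12, adjusted p = 0.019 in limma). Ethanol against control gave 0.46 ± 0.12 and did not pass (adjusted p = 0.075), but did so with the replicate block (adjusted p = 0.043), without acetate replicate 2 (adjusted p = 0.0087) and with the GC trend removed (adjusted p = 0.020). Acetate against control was -0.20 ± 0.12 (adjusted p = 0.43). The direct call was lost without acetate replicate 1 (adjusted p = 0.052), ethanol replicate 2 (0.11) or ethanol replicate 3 (0.095), and in the fit of only the 6 libraries compared.

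In GENCODE M21, 2616 exon bases of Sox4, 1330 of Sox5, 329 of Sox8 and 106 of Runx1 lie opposite exons of Gm26735, Sox5os1, 2810468N07Rik and Gm26626. The library kit marks strand, but whether counting used it is not stated, and without it reads of such partners cannot be told apart.

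The levels are per gene and do not tell which transcript start the measured RNA came from. The start regions of Sox5, Sox6, Sox8 and Sox4 are shown because these are the SOX members that have a listed window. Each runs from 250 bases before to 50 bases after a RefSeq transcript start on GRCm38.p6, 5′ to 3′ on the strand of the gene, and capitals mark the SOX core letters ACAAAG or ACAATG or their reverse complements CTTTGT and CATTGT. The Sox5 window (chr6:143947057-143947356) belongs to a start inside the gene, the Sox6 window (chr7:116038695-116038994) to its outermost listed start, and the others are at chr17:25570637-25570936 and chr13:28953650-28953949.
Sox5: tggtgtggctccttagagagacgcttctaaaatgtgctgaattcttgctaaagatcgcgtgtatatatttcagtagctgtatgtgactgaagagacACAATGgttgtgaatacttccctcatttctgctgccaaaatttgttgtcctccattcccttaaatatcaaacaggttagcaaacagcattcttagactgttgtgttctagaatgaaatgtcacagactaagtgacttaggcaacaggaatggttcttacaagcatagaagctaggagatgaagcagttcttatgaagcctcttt
Sox6: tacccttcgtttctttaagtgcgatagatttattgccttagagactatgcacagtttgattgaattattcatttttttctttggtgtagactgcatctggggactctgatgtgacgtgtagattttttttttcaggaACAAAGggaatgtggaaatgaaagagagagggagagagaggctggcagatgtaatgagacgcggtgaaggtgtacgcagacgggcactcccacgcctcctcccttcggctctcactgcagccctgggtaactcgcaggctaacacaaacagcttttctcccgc
Sox8: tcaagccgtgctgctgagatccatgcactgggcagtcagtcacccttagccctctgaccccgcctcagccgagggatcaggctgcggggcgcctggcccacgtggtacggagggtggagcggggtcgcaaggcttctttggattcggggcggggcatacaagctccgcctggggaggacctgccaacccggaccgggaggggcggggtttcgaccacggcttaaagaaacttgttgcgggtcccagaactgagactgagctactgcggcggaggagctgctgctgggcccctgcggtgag
Sox4: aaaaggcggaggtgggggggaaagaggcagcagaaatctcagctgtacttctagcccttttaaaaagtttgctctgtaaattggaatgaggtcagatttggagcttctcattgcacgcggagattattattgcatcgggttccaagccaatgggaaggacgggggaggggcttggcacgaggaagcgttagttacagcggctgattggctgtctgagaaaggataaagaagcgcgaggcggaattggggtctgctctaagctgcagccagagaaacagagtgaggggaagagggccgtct
The Sox5 and the Sox6 window hold 1 match each, and those of Sox8 and Sox4 hold 0. Sox6 has 6 listed windows, which from the outermost start inwards hold 1, 1, 4, 1, 3 and 0 matches. Of all 32851 such windows, 28.6% hold at least 1, so a match is common. Windows were listed for 8 of the 10 regulators.

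Wwp2 codes for a ubiquitin ligase that binds SOX9, and in cartilage its gene is known as a transcriptional target of SOX9. The gene (chromosome 8, 107436365 to 107558595, plus strand) stood at 361, 423 and 377 CPM in acetate, 513, 469 and 527 CPM in ethanol, and 525, 440 and 605 CPM in control. The acetate libraries were below all others, and ethanol and control overlapped. The log2 fold change of acetate against control was -0.42 ± 0.14 (adjusted p = 0.20 in limma) and that of acetate against ethanol -0.38 ± 0.14 (adjusted p = 0.17), and neither passed. After GC trend removal both passed, at -0.57 (adjusted p = 0.014) and -0.54 (adjusted p = 0.011). Ethanol against control was -0.05 ± 0.14, with a 95% interval of -0.36 to 0.26.

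The Wwp2 gene also holds Mir140, the precursor of a cartilage microRNA, at 107551244 to 107551313. Of the 4 annotated Wwp2 transcripts that span this position, 1 has it in an exon. Mir140 itself had 0 recovered reads in all 9 libraries, so its processing cannot be read from these data. The 3p mature arm is shown because its host RNA was measured here, and no other arm was listed in the sources used. It is given as in RefSeq on GRCm38.p6 (chr8:107551288-107551308, plus strand), with the seed, bases 2 to 8, in capitals.
mmu-miR-140-3p: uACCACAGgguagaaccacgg

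Trps1 codes for a zinc-finger repressor that growth plate cartilage needs for orderly maturation. The gene (chromosome 15, 50654752 to 50890463, minus strand) was at 347, 133 and 360 CPM in acetate, 373, 379 and 474 CPM in ethanol, and 431, 396 and 489 CPM in control. All acetate values lay below all ethanol and control values, acetate replicate 2 by far, and ethanol and control overlapped. At 40.7% GC, Trps1 had the lowest GC content of the 9 tested regulators, and acetate replicate 2 differed from the other acetate libraries by -1.40 on the log2 scale for this gene, a value in the lowest 6.02% of the tested genes. Acetate against control was -0.77 ± 0.33 (adjusted p = 0.33 in limma) with that library, -0.31 without it (adjusted p = 0.23) and -0.38 with the GC trend removed (adjusted p = 0.092). Ethanol against control was -0.11 ± 0.33 (adjusted p = 0.92), and acetate minus ethanol -0.67 ± 0.33, or -0.20 without acetate replicate 2, with none of these past the threshold.

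**Figure D2:**
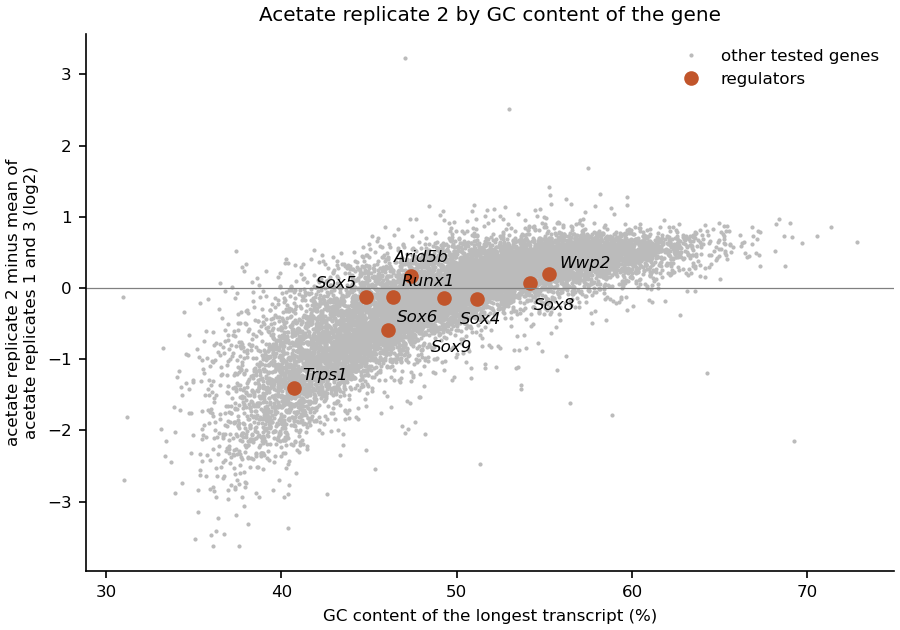
Difference of acetate replicate 2 from the mean of the other acetate libraries, in log2(CPM + 1), against the GC content of the longest transcript of each tested gene, with the 9 tested regulators in colour. Trps1, at 40.7% GC, lies at -1.40 and Sox6 at -0.59, while the other 7 lie between -0.16 and 0.20.

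Arid5b, which codes for a DNA-binding protein that works with the demethylase PHF2 on SOX9 target genes, was the only tested regulator with all acetate values above all control values. The gene (chromosome 10, 68092520 to 68278740, minus strand) stood at 73.7, 86.6 and 80.7 CPM in acetate, 58.4, 65.9 and 69.6 CPM in ethanol, and 62.8, 62.7 and 63.5 CPM in control. Acetate lay above both other groups without overlap, but neither difference passed (0.34 ± 0.11, adjusted p = 0.20 against control in limma, and 0.31 ± 0.11, adjusted p = 0.16 against ethanol). Runx1 codes for a Runt-domain factor of early chondrocytes (chromosome 16, 92601466 to 92826149, minus strand). It had 27.0, 28.0 and 34.4 CPM in acetate, 26.6, 30.0 and 38.7 CPM in ethanol, and 25.2, 25.8 and 28.2 CPM in control. All 3 groups overlapped, and the fold changes against control were 0.16 ± 0.16 with acetate and 0.24 ± 0.16 with ethanol (adjusted p = 0.57 and adjusted p = 0.45).

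Nkx3-2 codes for a homeodomain repressor that keeps cartilage cells from maturing (chromosome 5, 41761483 to 41764501, minus strand). It was barely detected, with 6, 27 and 19 recovered reads in acetate, 4, 11 and 7 reads in ethanol, and 7, 12 and 13 reads in control. These equal 0.152, 0.785 and 0.515 CPM in acetate, 0.113, 0.265 and 0.162 CPM in ethanol, and 0.192, 0.417 and 0.330 CPM in control. It was the member that did not reach the minimum of 1 CPM and was not tested with the others, and all 3 groups overlapped. When genes were not filtered by level, its log2 fold changes were 0.16 ± 0.15 with acetate and -0.15 ± 0.15 with ethanol against control (adjusted p = 0.66 and adjusted p = 0.69 in limma), and 0.31 ± 0.15 for acetate against ethanol (adjusted p = 0.32).

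Over the 9 tested regulators, 2 fell with acetate (Sox5 and Sox8) and 0 rose. Among all tested genes 0.497% fell and 0.505% rose. The median log2 fold change was -0.48 for the 9 and -0.01 for all tested genes, 7 of the 9 had an unadjusted p under 0.05 where 14.6% of all genes did, and without acetate replicate 2 Sox9 was added, for 3 that fell and 0 that rose, where 1.53% of all genes fell and 1.95% rose. Without control replicate 1 or control replicate 3, 0 of the 9 passed with acetate, and without acetate replicate 1 or 3, any ethanol library or control replicate 2, 1 did, Sox8. In the fit of only the 6 libraries compared, 1 of the 9 fell with acetate, so Sox5 and Sox8 did not both keep their calls there. With ethanol 0 of the 9 passed in limma in either direction, where 2.45% of all genes fell and 1.48% rose. Here 4 had an unadjusted p under 0.05, against 19.0% of all genes, and the median was -0.05. With replicate number as a block 2 fell (Sox9 and Sox6) and 1 rose (Sox4) with ethanol, where 5.07% of all genes fell and 3.27% rose, and without acetate replicate 2 these were 3 and 1, with Sox8 added, where 11.3% and 10.2% of all genes did. When any library other than acetate replicate 2 was left out, 0 of the 9 passed with ethanol. In the direct comparison 3 of 9 were lower in acetate than in ethanol (Sox5, Sox8 and Sox4) and 0 higher, against 0.886% and 2.84% of all genes, with medians of -0.38 for the regulators and -0.01 for all genes. The direct count was 0 when ethanol replicate 3 was left out, 1 when acetate replicate 1, ethanol replicate 1 or ethanol replicate 2 was, and 2 when control replicate 1 was. Both treatments were set against the same control libraries, so their values against control are not independent. The regulators were chosen with earlier results of these data known, so their counts beside those of all genes are not independent evidence.

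By the values of single libraries, 6 of the 9 had every acetate value below every control value and 1 had every one above, against 8.14% and 11.4% of all genes. For ethanol the counts were 3 below and 1 above control, against 23.3% and 20.1% of all genes, a share not far from the background. For acetate against ethanol they were 5 below and 1 above, against 12.5% and 15.3%. These counts too are not independent evidence, since the regulators were chosen with earlier results known.

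**Figure D3:**
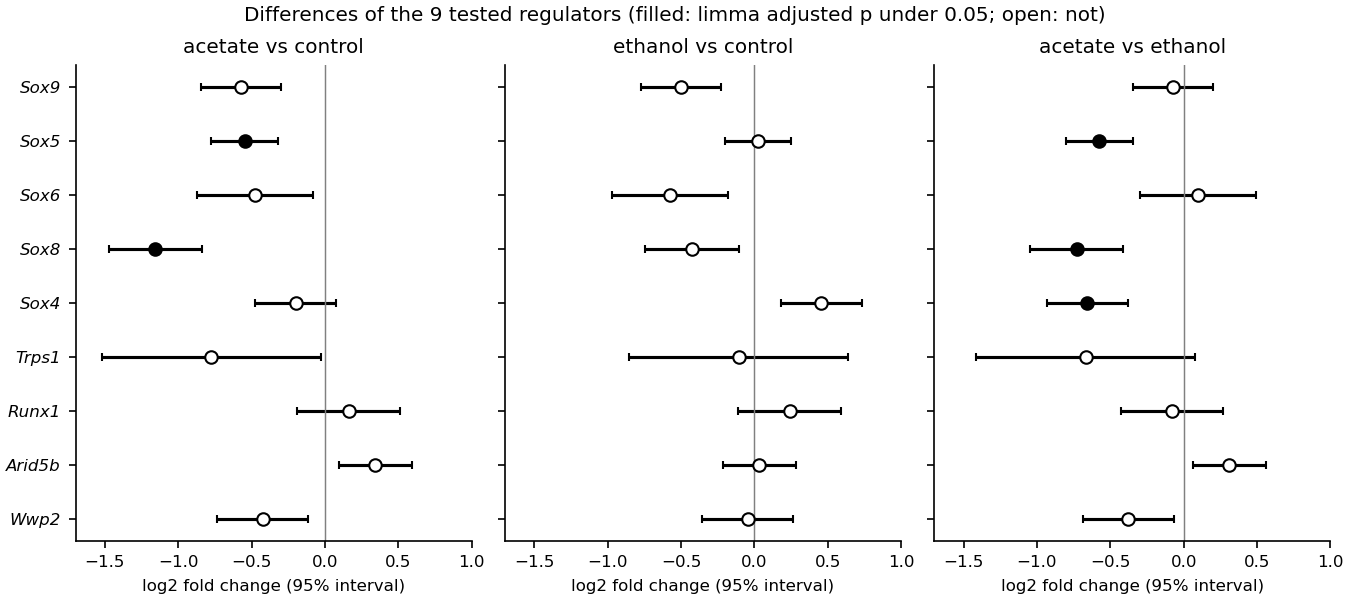
Log2 fold changes of the 9 tested regulators in the 3 comparisons, with 95% intervals from limma, and filled points where adjusted p was under 0.05. Sox5 and Sox8 are filled for acetate against control, none for ethanol against control, and Sox5, Sox8 and Sox4 for acetate against ethanol.

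The balance among SOX genes was also read as ratios within each library, on which library scaling has little bearing. They are differences of log2(CPM + 1). The added 1 CPM shrinks differences of a low gene such as Sox8, which averaged 4.68 CPM in acetate. The log2 ratio of Sox5 to Sox9 was -3.40 ± 0.06 in acetate, -2.90 ± 0.08 in ethanol and -3.43 ± 0.10 in control (SD, n = 3). Ethanol thus had more Sox5 per Sox9, by 0.52 against control, without overlap, and acetate differed from ethanol by -0.50, again without overlap. The ratio of Sox8 to Sox9 was -5.73 ± 0.12 in acetate, -5.08 ± 0.14 in ethanol and -5.15 ± 0.06 in control. Here acetate stood apart, by -0.58 from control and by -0.66 from ethanol, each without overlap.

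The ratio of Sox6 to Sox9 was -1.75 ± 0.26 in acetate, -1.92 ± 0.02 in ethanol and -1.85 ± 0.03 in control. The ethanol libraries were all just below the control libraries, by -0.08, and acetate spanned both, with replicate 2 lowest at -2.05. Col2a1, which codes for the main cartilage collagen and is a direct target of the trio, was lower per Sox9 in both treatments, with log2 ratios of 3.84 ± 0.20 in acetate, 3.65 ± 0.10 in ethanol and 4.33 ± 0.09 in control. The differences from control were -0.48 with acetate and -0.68 with ethanol. In a two-sided exact permutation test of 3 against 3 libraries the smallest p is 0.1, which each of the non-overlapping ratios reached. Over the 12 tests this gave an adjusted p of 0.17 in that exact test, so none passed.

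**Figure D4:**
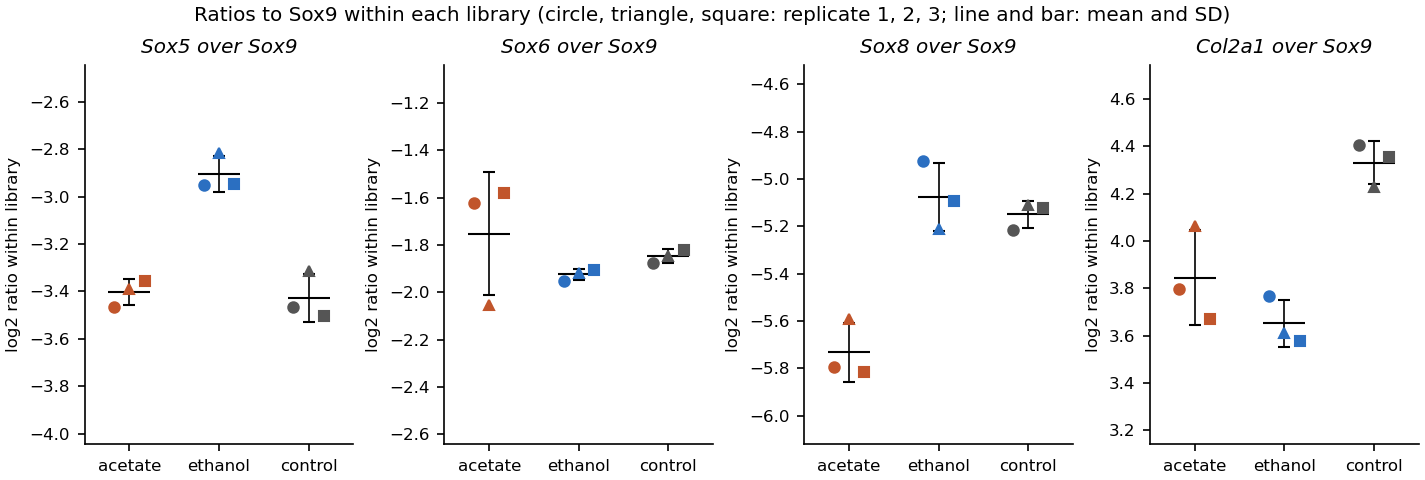
Log2 ratios of Sox5, Sox6, Sox8 and Col2a1 to Sox9 within each library, from log2(CPM + 1), with the mean and SD of 3 libraries per group; all panels span the same range of log2 units. The Sox5 ratio is highest in ethanol (-2.90), the Sox8 ratio lowest in acetate (-5.73), and the Col2a1 ratio lower in acetate (3.84) and ethanol (3.65) than in control (4.33).

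Cartilage genes known as targets of the trio were lower with both treatments. Of 20 listed and tested, 15 fell with acetate and 16 with ethanol, 0 rose with either, and the medians were -1.32 and -1.21, where 0.497% and 2.45% of all genes fell. Epyc, in both counts, averaged 0.368 CPM in acetate, 0.646 CPM in ethanol and 3.50 CPM in control. It reached the mean of 1 CPM only through control, so its fall is not independent of that filter. In fits of only the 6 libraries compared, 7 fell with acetate and 20 with ethanol, where 17 and 1881 of all 12868 tested genes fell. The list was chosen with earlier results of these data known, so its direction is not independent evidence. With acetate, 19 fell without acetate replicate 2, but 7 without acetate replicate 3, 9 when control replicate 2 was left out, 1 when control replicate 1 was and 0 when control replicate 3 was, a fit that called 0 of all genes and had 1720 at an unadjusted p under 0.05. With ethanol, 9 fell without ethanol replicate 2, 7 when control replicate 1 was left out and 10 when control replicate 3 was. The medians over these left-out libraries ran from -1.09 to -1.47. Among those that passed, Col9a2, a collagen IX chain, fell most with acetate (-2.33 ± 0.26, with 3.57 ± 0.776 CPM in acetate and 21.9 ± 3.25 CPM in control). Matn4, a matrilin (-2.01 ± 0.18), Snorc, a cartilage membrane proteoglycan (-1.87 ± 0.20), and Col9a1 (-1.83 ± 0.19) came next. Hapln1, another of the 20, gave -2.21 ± 0.44 with acetate but did not pass (adjusted p = 0.056 in limma). Without acetate replicate 2 it gave -1.57 and passed (adjusted p = 0.0014). With ethanol the deepest were Matn1, a matrilin of the growth plate (-2.73 ± 0.17), Snorc (-2.12 ± 0.20), Col9a2 (-1.93 ± 0.26) and Comp, a pentameric matrix protein (-1.88 ± 0.16).

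Directly compared, 2 of the 20 targets were higher in acetate than in ethanol, Matn1 (1.68 ± 0.17) and Comp (0.91 ± 0.16), and 1 was lower, Col9a3 (-0.88 ± 0.18; 2 with the replicate block), against 2.84% and 0.886% of all genes. Matn1 stood at 26.1 ± 3.45 CPM in acetate, 7.51 ± 1.88 CPM in ethanol and 54.7 ± 2.72 CPM in control. Col2a1 gave -1.06 ± 0.15 with acetate and -1.18 ± 0.15 with ethanol (adjusted p = 0.017 and adjusted p = 0.0048 in limma). Acan, the gene of the proteoglycan aggrecan, gave -0.91 ± 0.18 (adjusted p = 0.055) and -0.92 ± 0.18 (adjusted p = 0.027). With acetate Acan passed when acetate replicate 2 was left out (adjusted p = 0.028), and with ethanol it did not when any ethanol library (0.055 to 0.13), control replicate 1 (0.13) or control replicate 3 (0.093) was. Col2a1 was lost with acetate without acetate replicate 3 (0.058), control replicate 1 (0.13) or control replicate 3 (0.097), and Col2a1 in both comparisons and Acan with ethanol were lost with no filter on low values (0.24, 0.12 and 0.054). Matn4, Col9a2, Col9a1 and Snorc lost the acetate call without control replicate 3 (0.052 to 0.064), and all but Matn4 did so without control replicate 1 (0.057 to 0.063). Between the treatments, Comp was lost without ethanol replicate 1 (0.061) or 2 (0.077), and Col9a3 without acetate replicate 1, any ethanol library or control replicate 1 (0.061 to 0.13) and with no filter (0.062). With only the 6 libraries compared, Col2a1 was lost with acetate (0.11), and Comp (0.063) and Col9a3 (0.076) between the treatments.

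Of 14 other SOX genes in the table only Sox2, Sox11 and Sox12 reached 1 CPM. Sox11, from the same SOX group as Sox4, was at 3.80 ± 0.414 CPM in acetate, 1.65 ± 0.210 CPM in ethanol and 1.76 ± 0.0537 CPM in control. It rose with acetate (0.79 ± 0.11, adjusted p = 0.016 in limma) and was higher in acetate than in ethanol (0.86 ± 0.11, adjusted p = 0.0057), the opposite order to Sox4. The call against control was lost without acetate replicate 3 (0.061), control replicate 1 (0.13), control replicate 2 (0.074) or control replicate 3 (0.077), and with only the 6 libraries compared (0.11). Sox12, the remaining gene of that SOX group, gave 0.34 ± 0.16 with acetate and 0.11 ± 0.16 with ethanol, and Sox2, a stem cell gene, gave -0.23 ± 0.15 and 0.17 ± 0.15. Neither passed in any of the 3 comparisons. Sox10, the relative of Sox8 and Sox9 in neural crest cells, was at or near 0.

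Of 15 genes for cofactors and modifiers of SOX9, among them Ep300 and Crebbp, which code for acetyltransferases, 0 passed in any of the 3 comparisons in limma, where 1.00% of all genes did for acetate against control, 3.93% for ethanol against control and 3.73% for acetate against ethanol. At an unadjusted p under 0.05 there were 1 of 15 for acetate against control, 2 for ethanol against control and 4 for acetate against ethanol, where 14.6%, 19.0% and 21.1% of all genes were. The largest change of the 15 with acetate was that of Prkg2, -1.61 ± 0.39 (adjusted p = 0.094 in limma). Prkg2 averaged 60.3 ± 31.7 CPM in acetate and 164 ± 16.4 CPM in control. Without acetate replicate 2, 1 of the 15 fell with acetate, Prkg2 (-1.05, adjusted p = 0.0029), where 1.53% of all genes did. With ethanol, again without that replicate, 3 fell (Prkg2, Ppargc1a and Pias1) and 1 rose (Ep300), against 11.3% and 10.2% of all genes. In those 8 libraries 1 was higher (Ppargc1a) and 0 lower in acetate than in ethanol, against 5.72% and 2.89%. With the replicate block, Ep300 and Crebbp rose with ethanol (adjusted p = 0.023 and adjusted p = 0.033 in limma), where 3.27% of all genes did. Both were lower in acetate than in ethanol under the block (adjusted p = 0.023 and adjusted p = 0.042), where 1.73% of all genes were lower and 4.67% higher. They are named here with their values already seen. Crebbp averaged 36.5 ± 7.16 CPM in acetate, 50.5 ± 12.3 CPM in ethanol and 35.9 ± 4.99 CPM in control. Of 23 tested regulators of other skeletal steps, 1 fell with acetate, the forkhead gene Foxa3 (-0.94 ± 0.14), where 0.497% of all genes fell. Foxa3 averaged 0.612 CPM in acetate, 0.372 CPM in ethanol and 2.08 CPM in control. It reached the mean of 1 CPM only through control, so its fall with either treatment is not independent of that filter. With ethanol 3 fell, Foxa2 (-1.31 ± 0.16, with 6.89 ± 1.12 CPM in ethanol and 18.7 ± 3.63 CPM in control), Foxa3 (-1.18 ± 0.14) and Gli1, a hedgehog effector (-0.82 ± 0.15), where 2.45% of all genes fell. With acetate Foxa2 gave -0.75 ± 0.16 and did not pass (adjusted p = 0.064 in limma). It did without acetate replicate 2 (adjusted p = 0.038) and with the GC trend removed (adjusted p = 0.016). Dlx5, a homeodomain factor of bone and cartilage, was higher in acetate than in ethanol (0.56 ± 0.12, adjusted p = 0.038 in limma), where 2.84% of all genes were. With the replicate block 2 of the 23 were higher, where 4.67% of all genes were. Runx2, the regulator of hypertrophy and bone formation, did not pass, at -0.15 ± 0.13 with acetate and -0.16 ± 0.13 with ethanol (adjusted p = 0.54 and adjusted p = 0.56). Foxa3 lost the acetate call without acetate replicate 3, ethanol replicate 2 or any control library (0.051 to 0.14) and with a pseudocount of 0.1 (0.078). Gli1 lost its call without any ethanol library, control replicate 1 or control replicate 3 (0.069 to 0.12), and Dlx5 without acetate replicate 3, any ethanol or any control library (0.056 to 0.18). With only the 6 libraries compared, Foxa3 lost the acetate call (0.083) and Dlx5 the direct one (0.14).

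**Figure D5:**
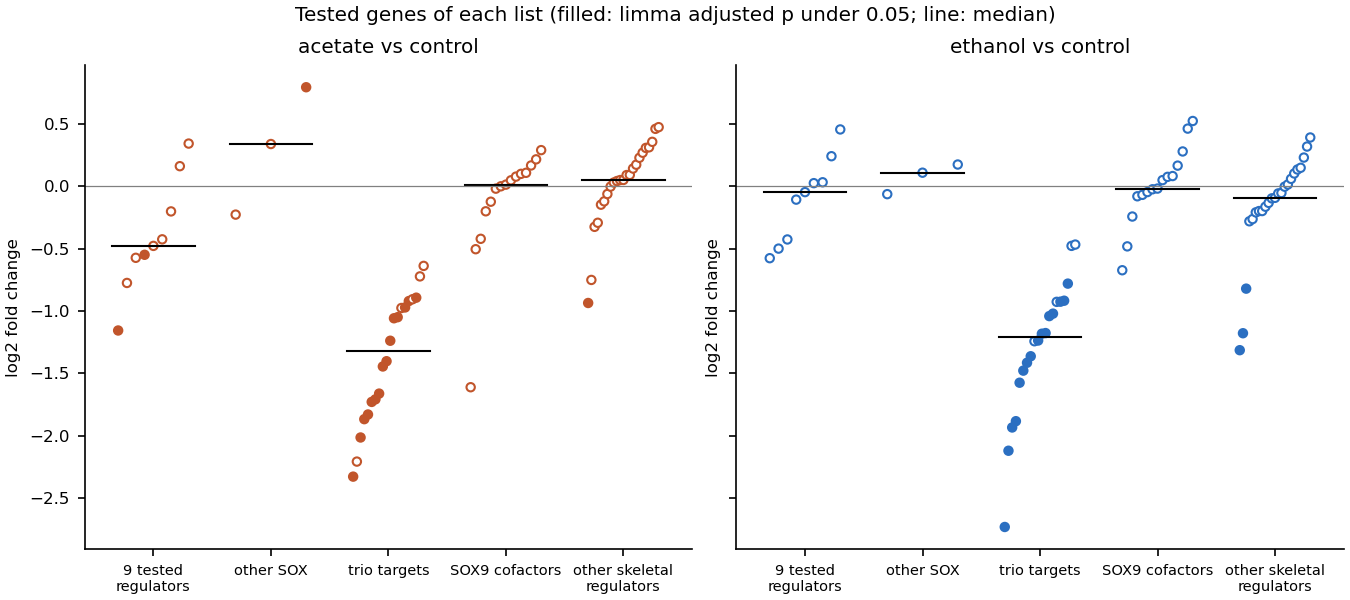
Log2 fold changes against control of the tested genes of 5 lists, ordered by value within a list, with the median as a line and filled points where adjusted p was under 0.05 in limma. The 20 targets of the trio have medians of -1.32 with acetate and -1.21 with ethanol, against -0.48 and -0.05 for the 9 tested regulators and 0.01 and -0.02 for the 15 cofactors.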

How the data were processed

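RNA sequencing of ATDC5 cells gave 9 libraries, 3 per group by their titles. The authors deposited 1 table of log2 values, TMM-normalised counts per the file name. The submitters' processing notes name Partek, Bowtie2 2.2.5, STAR 2.7.8a and mm10, without roles. The counting step and its annotation are not given in the sources used here. The value of genes without reads in each library, taken as an offset of 1e-05 read, was subtracted after raising 2 to the deposited values, which gave TMM-scaled CPM and recovered reads. In each library 85.7% to 87.4% of values below 20 recovered reads came within 0.02 of a whole number, so no count model was used.

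Genes averaging 1 CPM or more over the 9 libraries were fitted on log2(CPM + 1), a scale that understates changes of low genes, using limma 3.58.1 (R 4.3.3) with group means as the model and a trended variance prior. Ratios were compared by two-sided exact permutation tests. The limma fit was tried on simulated independent counts, with changes set for ethanol against control. They held no GC trend, replicate effect or outlying library, so that check does not cover these features.

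All 10 regulators were named in every comparison, and of the other lists up to 4 passing genes per comparison and direction by fold change, with Col2a1, Acan and Runx2 always. Members and lists were chosen with earlier results of these data known. GENCODE M21 (GRCm38, the build of mm10) gave positions, lengths and GC content, with 24919 genes matched by symbol, 467 by synonym and 816 not. GC content was known for 99.1% of tested genes. Replicate numbers come from the titles. Deviations of same-numbered libraries correlated at 0.55, 0.36 and 0.67 for ethanol and control, at 0.15, 0.25 and 0.61 for acetate and ethanol, and at 0.25, -0.10 and 0.41 for acetate and control, so the block is used beside results of the first 2 comparisons only. Pairing was thus inferred from these same data, and for acetate and ethanol it was weak at replicate 1 (0.15). The block was fitted over all 9 libraries at once. Alternatives covered the pseudocount, filter, scaling, variance model, libraries, block and GC trend. Python 3.11.15, pandas 2.3.3, scipy 1.17.1 and matplotlib 3.10.9 were used.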

Additional observations from a re-analysis of the deposited data

How the results depend on the processing

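Among 17 alternatives (8 other settings and 9 left-out libraries), fold changes of the 9 tested regulators kept direction and side of the threshold in 389 cases, became significant in 34, lost significance in 28 and changed sign in 8. The 129 genes past the threshold for acetate against control became 20 with only the 6 libraries compared, 293 with the replicate block, 650 with the GC trend removed and 2245 with both, and 0 to 448 with a library left out. For ethanol against control 506 became 3443, 1074, 2045 and 4619 in that order, and 98 to 2766. For acetate against ethanol 480 became 107, 823, 1431 and 3917, and 103 to 1108. The cause was not tested. Median-of-ratios scaling gave 62 higher and 85 lower for acetate against control, where TMM gave 65 and 64, and GC removal gave 979 and 1066 for ethanol against control (191 and 315 before) and 819 and 612 for acetate against ethanol (366 and 114 before). Of the regulators, with acetate 1 was lower with 6 libraries only, 3 with the replicate block, and 5 lower and 1 higher with GC removal and the block together, with 0 to 3 lower over left-out libraries. With ethanol 1 was lower by median-of-ratios scaling, 3 lower and 1 higher with 6 libraries only, 2 and 1 with the replicate block or with GC removal, and 3 and 1 with both, with 0 to 3 lower and 0 to 1 higher over left-out libraries. Between the treatments 0 were lower with 6 libraries only, 5 lower and 2 higher with GC removal and the block, and 0 to 3 lower over left-out libraries. With acetate against control, where the numbers were not shown to pair, the block brought Sox9 past the threshold (adjusted p = 0.029 in limma). It changed no call of a regulator beyond that and those given beside the results. The regulators and ratios that changed sign passed in no fit in which they did so. Over left-out libraries, ethanol against control ran from -0.016 to 0.054 for Sox5, -0.022 to 0.10 for Arid5b and -0.17 to 0.064 for Wwp2, and acetate against ethanol from -0.0024 to 0.30 for Sox6 and -0.20 to 0.067 for Runx1, which was 0.032 with GC removed, with or without the block. The ratio differences ran from -0.0020 to 0.14 for Sox8 over Sox9 with ethanol and -0.013 to 0.081 for Sox5 over Sox9 with acetate, both against control. Chosen after seeing the data, the replicate block together with leaving out acetate replicate 2 gave 2773 genes for acetate against control (1 regulator higher and 6 lower), 6466 for ethanol against control (2 and 3) and 4262 for acetate against ethanol (2 and 5). Limma's prior degrees of freedom were infinite in that fit, so every gene got the variance of the trend, and no call in the text rests on it. Nkx3-2 had 4 to 27 reads per library.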

Other observations

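Within the control group, replicate 3 had the highest value for 9 of the 9 tested regulators and replicate 2 the lowest for 7. Over all tested genes, control replicate 3 was highest for 51.1% and control replicate 2 lowest for 48.5%. Within the ethanol group, replicate 3 was highest for 7 of the 9, against 42.0% of all tested genes, and ethanol replicate 2 was lowest for 5, against 16.5%. Within the acetate group, replicate 2 was lowest for 5 of the 9, against 45.1%, and highest for 3, against 42.4%.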
